A study of Mus musculus with 4 samples.

Results

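The Homer family was measured by 8 probes of a one-colour Agilent expression array: 4 of Homer1, 2 of Homer2 and 2 of Homer3. The members are every non-control probe that the scanner files name with one of these 3 symbols, out of 56605 non-control probes, and all 8 were well above background on every array and were kept apart. The Homer family was selected on the measured diet change of a Homer1 probe in these same arrays, together with its known short and long forms. The values below therefore describe the members and are supported by no test.

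The samples were prefrontal cortex of 3-month-old B6J mice. Mice ate starch or sucrose for about 70 days from weaning at postnatal day 21. Their genotype was wild-type or Glo1 heterozygous; Glo1 encodes glyoxalase 1, which detoxifies methylglyoxal. This gave 4 groups: wild-type starch (the study's control), wild-type sucrose, Glo1 heterozygous starch and Glo1 heterozygous sucrose. How the Glo1 allele was made and the sex of the mice are not given in the sources used here. In each group 3 independent RNA samples were mixed and hybridised to 1 array, and the 4 arrays shared 1 slide. Differences between arrays thus have no replicate error, and group cannot be told apart from pool or slide position. In RNA from whole tissue, fewer cells of a type and less RNA per cell cannot be told apart.

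Homer proteins are adaptors of the excitatory postsynapse. The N-terminal EVH1 domain binds group 1 metabotropic glutamate receptors, IP3 and ryanodine receptors and Shank proteins. The C-terminal coiled coil of the long forms joins Homer molecules to each other, so that long Homers link receptors to calcium stores and to the scaffold. Homer1 also makes short forms, Homer1a and Ania-3, which carry the EVH1 domain without the coiled coil. They are induced by neuronal activity as immediate early transcripts, end at sites within a large intron in the middle of the gene, and act as natural competitors of the long forms. Homer2 and Homer3 make long forms. Homer3 is best known from cerebellar Purkinje cells.

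The Homer1 probes differ in the part of the gene they read, so their sequences are shown first. All lie on the plus strand of chromosome 13 (build mm9). The most upstream one, A_55_P2122789 at chr13:94116595-94116654, is assigned by the files to transcript variant S, the short form. It is given in full, because its letters bear on what it can measure:

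Homer1 variant S probe: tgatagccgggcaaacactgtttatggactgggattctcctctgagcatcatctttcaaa

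Read from its second base the sequence is open to the end, and that frame spells part of the EVH1 domain, an identification made from knowledge of the protein and not from a protein table. Short and long forms share this domain, so the letters of the probe do not separate them, although the files list it for the short form. The second probe, A_52_P37991, lies 13.3 kb further downstream at chr13:94129858-94129917 and 43.4 kb upstream of the next one. The files give it an Ensembl transcript and no variant name. None of its 3 forward reading frames is open. It is called the interval probe here: it lies in the part of the gene between the EVH1 exons and the long tail, where the short forms are known to end, but no mm9 annotation was used to assign it to a transcript. The remaining probes, A_52_P151211 at chr13:94173265-94173324 (variant d) and A_55_P1982111 at chr13:94174815-94174874 (variant L, the long form), are 1.55 kb apart at the downstream end and are called the tail probes. The first 30 bases of these 3 probes, each 60 bases long, are shown to identify them:

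Homer1 interval probe: tcattagaccctaatagaccaagttatatg

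Homer1 tail probe, variant d: tcaaacttcacaaggctatattttgaactg

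Homer1 tail probe, variant L: caggggtcagtcccatctgtgtataagtta

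The interval probe of Homer1 was about 3-fold lower on sucrose than on starch in both genotypes, while the other Homer1 probes were lower by much less. Levels are signals divided by the 75th percentile of all non-control spots on the same array. That of the interval probe was 2.74 on the wild-type starch and 2.81 on the Glo1 heterozygous starch array. On the sucrose arrays it was 0.850 in wild-type mice and 0.887 in heterozygotes. The starch arrays lay together, the sucrose arrays lay together, and the pairs did not overlap. The log2 change was -1.69 in wild-type mice, a 3.22-fold difference that left 31.1% of the starch signal. In heterozygous mice it was -1.66, a 3.17-fold difference that left 31.6%. For comparison, the SD expected of a difference between single spots was 0.085 on the log2 scale for a probe of this brightness. That SD comes from the 5 nearest in signal of the 300 probes printed 10 times on each array, which for the Homer1 and Homer2 probes lay up to 0.19 to 1.51 log2 units away. It covers the spot only, not mice, pools or labelling.

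The variant S probe, which reads EVH1 coding sequence, was lower on sucrose too. Its levels were 1.72 on wild-type starch, 1.33 on wild-type sucrose, 1.91 on heterozygous starch and 1.17 on heterozygous sucrose. Both sucrose arrays were below both starch arrays. The log2 change was -0.38 in wild-type mice and -0.71 in heterozygotes, 1.30-fold and 1.63-fold, with an expected spot SD of 0.085.

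The tail probes, which read the end of the long transcripts, showed the smallest differences. The variant L probe had levels of 7.16, 5.98, 7.39 and 5.50 on wild-type starch, wild-type sucrose, heterozygous starch and heterozygous sucrose. The variant d probe had 2.65, 2.09, 2.50 and 1.98 in the same order. On both probes the 2 sucrose arrays again lay below the 2 starch arrays. This held for 4 of 4 Homer1 probes, as it did for 19.0% of all measured probes. The diet changes of the variant L probe were -0.26 in wild-type mice and -0.43 in heterozygotes, with an expected spot SD of 0.070. Those of the variant d probe were -0.35 and -0.33, with 0.076. All 8 Homer1 diet changes kept their sign under normexp background correction, median scaling, quantile normalization and scaling to excitatory neuron markers. The last, which moved the median wild-type diet change of all probes to -0.28, gave wild-type changes of -0.65 at the variant S, -0.62 at the variant d and -0.54 at the variant L probe, and a variant S change of -0.70 in heterozygotes.

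**Figure D1:**
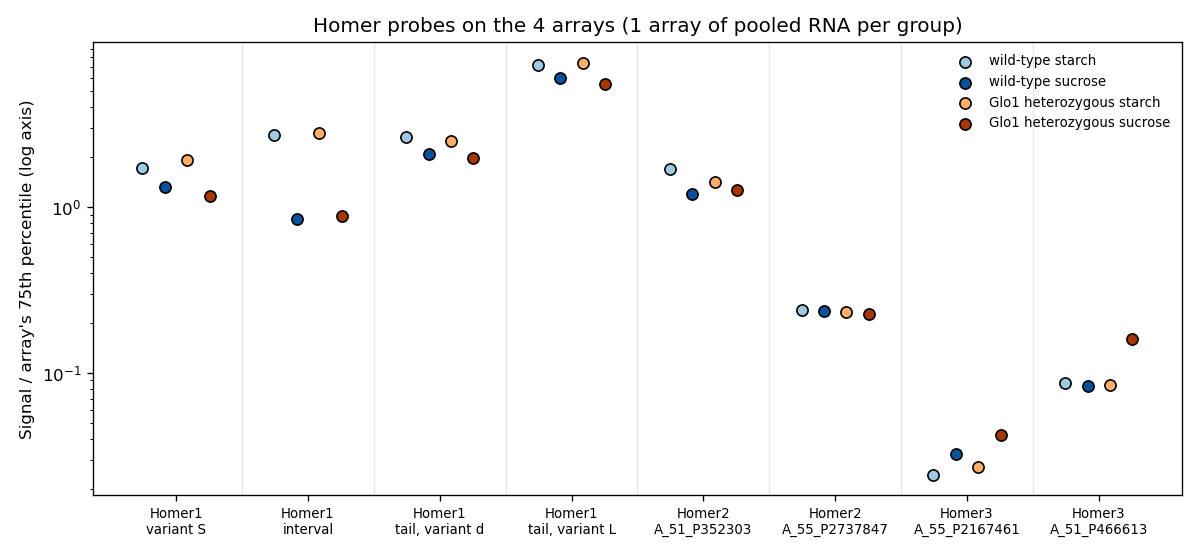
Level of each Homer probe on the 4 arrays, as signal over the array's 75th percentile on a log axis, with 1 point per array (a pool of 3 RNA samples) and no error bars; heights of different probes are not comparable with each other. The interval probe of Homer1 is at 2.74 and 2.81 on the starch arrays and at 0.850 and 0.887 on the sucrose arrays, and Homer3 probe A_51_P466613 is highest on the heterozygous sucrose array, at 0.160.

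The change along the gene did not run in one direction from the upstream to the downstream end. From the EVH1 probe the size of the diet change went up at the interval probe, 13.3 kb on, and was small again at the tail, 56.7 kb from the EVH1 probe. Differences between probes within the same pair of arrays do not depend on scaling to a common level. With the short form represented by the probe that the files assign to variant S, short minus long (variant L) was -0.11 in wild-type mice and -0.28 in heterozygotes on the log2 scale. Its sign turned, to 0.39 and 0.10, with the long form as the mean of all other Homer1 probes, which include the interval probe. With the interval probe as the short form against variant L, a choice made after the values were seen, it was -1.42 and -1.24. Against the mean of both tail probes the interval probe gave -1.38 and -1.28. The interval probe minus the variant S probe was -1.31 and -0.96. The contrast between Homer1 regions on sucrose thus rests on the interval probe, a single spot on each array.

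**Figure D2:**
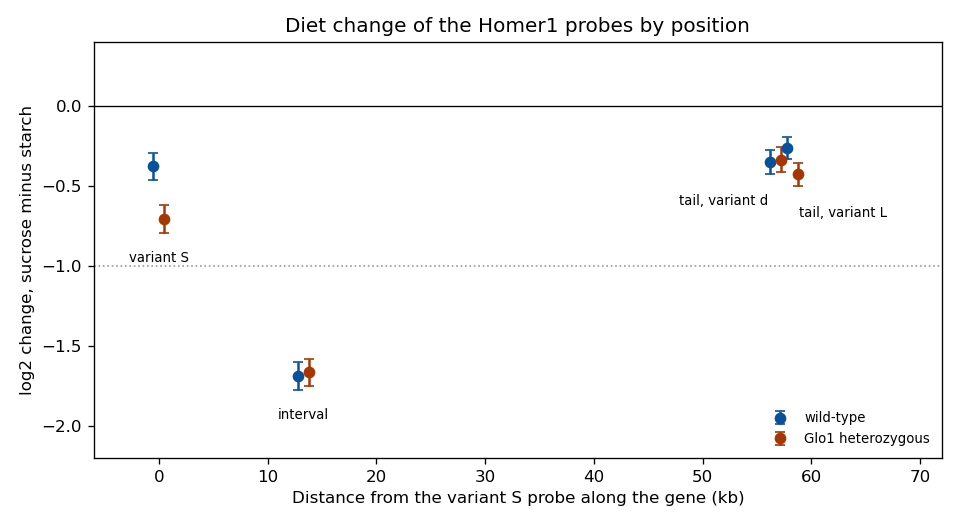
Log2 diet change (sucrose minus starch) of the 4 Homer1 probes against distance in kb from the variant S probe, in wild-type and Glo1 heterozygous mice; the 2 genotypes are drawn slightly apart and bars are ±1 expected SD of a difference between single spots. The interval probe, 13.3 kb on, is at -1.69 and -1.66, and the other 3 probes lie between -0.71 and -0.26.

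These values were set beside the whole array. Of the 8 Homer probes, 1 was 2-fold or more lower on sucrose in wild-type mice, the interval probe, and 0 were 2-fold higher, where 0.822% of 42094 measured probes were 2-fold lower and 0.494% higher. In heterozygous mice the interval probe was again the 1 member past 2-fold, where 0.461% of probes were lower by that much and 0.998% higher. Both diet changes passed 2-fold downward at 31 probes, or 0.0736%. Counting the interval probe itself, 3 probes were at or below its values in both genotypes. Over all 42094 probes the median diet changes were -0.0034 and -0.0028, against -0.30 and -0.25 over the 8 members. The members' medians are weighted to Homer1, which has 4 of the 8 probes, and do not describe each gene. Homer2 probe A_55_P2737847 was at -0.0065 and -0.04, and the Homer3 probes ran from -0.06 to 0.92. Disagreement among probes of a gene was also described for all genes. The diet changes of the Homer1 probes spanned 1.43 in wild-type mice and 1.33 in heterozygotes. Of 9065 genes with at least 2 measured probes, 8 including Homer1 itself (0.088%) spanned at least 1.33, the smaller Homer1 value, in both genotypes. Because Homer1 was picked for this contrast, these ranks say where it lies and are no evidence for it.

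**Figure D3:**
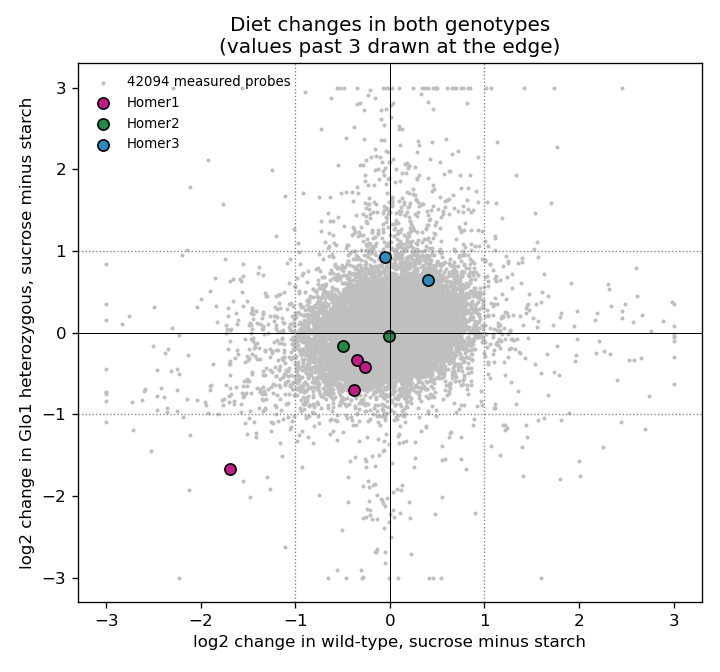
Log2 diet change in Glo1 heterozygous against wild-type mice for 42094 measured probes (grey) and the 8 Homer probes (coloured); dotted lines mark 2-fold and values past 3 are drawn at the edge. The interval probe of Homer1 is at -1.69 and -1.66, while the other 7 Homer probes lie within 2-fold on both axes.

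Between genotypes the Homer1 probes differed by at most 0.18 on the log2 scale on either diet. The interval probe differed between heterozygous and wild-type mice by 0.04 on starch and 0.06 on sucrose, both under its expected spot SD of 0.085. The variant S probe gave 0.15 and -0.18, the variant L probe 0.04 and -0.12, and the variant d probe -0.09 and -0.07. Scaling to the excitatory neuron markers shifted all genotype changes on starch alike, the median of all probes from -0.014 to -0.17, and with it those of the interval, variant S, variant L and variant d probes to -0.12, -0.0026, -0.11 and -0.24. On sucrose it moved the median of all probes from -0.015 to 0.11. The same 4 probes then had genotype changes on sucrose of 0.19, -0.05, 0.0048 and 0.05. With the main scaling no Homer probe passed 2-fold between genotypes, where 0.938% of probes did on starch and 1.43% on sucrose. Scaled to the excitatory neuron markers, Homer3 probe A_51_P466613 passed on sucrose, at 1.06, where 699 of 42094 probes did. With diet and genotype both changed, heterozygous sucrose minus wild-type starch, the interval probe was again the 1 member past 2-fold (-1.63), against 1.82% of all probes. The interaction, the diet change in heterozygous minus that in wild-type mice, was 0.02 at the interval probe and -0.33 at the variant S probe. Scaled to the excitatory neuron markers these were 0.30 and -0.05, with the median of all probes at 0.28. It was past 1 in size at none of the 8 members and at 2.74% of all probes. Homer3 probe A_51_P466613 was nearest, at 0.98, and passed with 1.26 under that scaling. Comparisons that share an array are not independent of each other.

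Homer2, a long adaptor, gave different diet changes at its 2 probes. Probe A_51_P352303, on the minus strand of chromosome 7 at chr7:88756199-88756258 (variant 1 per the files), had levels of 1.68 on wild-type starch, 1.20 on wild-type sucrose, 1.42 on heterozygous starch and 1.27 on heterozygous sucrose. The wild-type starch array was highest, the wild-type sucrose array lowest, and both sucrose arrays lay below both starch arrays. Its diet change was -0.49 in wild-type mice and -0.16 in heterozygotes, with an expected spot SD of 0.085. The other probe, A_55_P2737847, lies 12.3 kb upstream at chr7:88768453-88768512 and was designed on a cDNA clone of the corpora quadrigemina, part of the midbrain. Its levels were 0.238, 0.237, 0.232 and 0.226 in the same order. Its diet changes, -0.0065 and -0.04, were within the expected spot SD of 0.11, so the 2 Homer2 probes did not give the same answer in wild-type mice. Scaled to the excitatory neuron markers, the wild-type changes were -0.77 at the first and -0.28 at the second, beside a median of -0.28 over all probes.

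Both Homer3 probes had their highest level with heterozygous genotype and sucrose together. Probe A_51_P466613, at chr8:72817724-72817783 on the plus strand, had levels of 0.087, 0.084 and 0.085 on wild-type starch, wild-type sucrose and heterozygous starch, and of 0.160 on heterozygous sucrose. Its diet change was -0.06 in wild-type mice and 0.92 in heterozygotes, and its genotype change was -0.04 on starch and 0.94 on sucrose. The second probe, A_55_P2167461, lies 7.52 kb upstream at chr8:72810201-72810260 and was designed on a dendritic cell cDNA clone whose product the files call unclassifiable. Its levels were 0.024, 0.032, 0.027 and 0.042 in the same order, so that the heterozygous sucrose array was highest here too. On this probe both sucrose arrays lay above both starch arrays, as on 19.7% of measured probes. Its diet change was 0.41 in wild-type mice and 0.64 in heterozygotes, but under normexp background correction these were -0.02 and 0.22. Under normexp the diet change of A_51_P466613 in heterozygous mice was 0.64. The repeated probes nearest in signal were up to 3.63 and 1.99 log2 units away from these probes, so no expected spot SD is given for Homer3.

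Homer3 and Ddx49, an RNA helicase gene, overlap at their ends in the RefSeq table of assembly GRCm38.p6. The probe coordinates are of build mm9, so probe A_51_P466613 was not placed inside or outside this overlap. The Ddx49 probe lies 0.87 kb from A_51_P466613 and is printed in the opposite orientation. Its levels were 0.588, 0.605, 0.511 and 0.586, a diet change of 0.04 in wild-type mice and 0.20 in heterozygotes. The heterozygous sucrose array was also the one with the highest level of choroid plexus transcripts. All 5 choroid plexus markers (Kcne2, Folr1, Clic6, Sostdc1 and Kl) were higher there than on the heterozygous starch array, with a median difference of 4.90, and their summed level was 9.31 against 0.322 to 0.575 on the other 3 arrays. In wild-type mice 5 of 5 were also higher on sucrose, with a median difference of 0.78. Of 5 markers of cerebellar Purkinje and granule cells, 3 were measured on all arrays and had summed levels of 0.661 to 1.06, with 0.845 on heterozygous sucrose. By gene, 2 of 3 were higher there than on heterozygous starch (median 0.14) and 3 of 3 higher than on wild-type sucrose (0.41). Against wild-type starch 1 of 3 was higher (median -0.13). Cbln3 and Gabra6 were not measured on all arrays. The part of these cell types in the Homer3 values was not tested.

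The tissue was checked against listed markers. All 7 cortical excitatory neuron markers were measured on all arrays, with summed levels of 62.4 on wild-type starch, 85.5 on wild-type sucrose, 78.5 on heterozygous starch and 80.8 on heterozygous sucrose. They were higher on sucrose at 7 of 7 genes in wild-type mice and at 3 of 7 in heterozygotes, where their median change was -0.13. Markers of other tissue were present as well, and some were lower on sucrose in both genotypes. Their median changes in wild-type mice and heterozygotes were -1.58 and -0.87 for blood and -2.14 and -0.81 for olfactory bulb. Those of the interval probe were alike in both, -1.69 and -1.66. The 3 blood markers had summed levels of 118.6, 59.4, 100.1 and 66.0 in that order, lower on sucrose at 3 of 3 genes in both genotypes. The 5 olfactory bulb markers had 8.37, 1.92, 7.80 and 4.48, lower at 5 of 5 genes in both genotypes. The 10 striatum markers went the opposite way in the 2 genotypes, with summed levels of 34.2, 56.4, 52.5 and 29.4. Homer genes are expressed in several of these regions, and the part of tissue makeup in the Homer values was not tested. With the arrays scaled to the excitatory neuron markers instead, a choice made after the values were seen, the interval probe changed by -1.96 in wild-type mice, where the median of all probes went to -0.28, and by -1.66 in heterozygotes.

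The genes whose proteins Homer binds or signals with were 29 genes in 5 lists (group 1 receptors, Gq signalling, calcium channels, postsynaptic scaffold and other partners), each gene represented by its brightest probe. None passed 2-fold with diet in either genotype, where 1.48% of 20655 genes did in wild-type and 1.77% in heterozygous mice, so that the count of 0 is near the background share. Their median diet change was 0.08 in wild-type mice and -0.0021 in heterozygotes, against -0.0007 and 0.0003 over all genes. In wild-type mice 10 of the 29 were lower on sucrose, and in heterozygous mice 15. With medians this near 0, about as many of all genes were lower by any amount as higher. Scaling to the excitatory neuron markers shifted the wild-type medians of the Gq, calcium channel, scaffold and other partner lists to between -0.22 and -0.08, along with that of all probes, which went to -0.28. Between genotypes 0 of the 29 passed 2-fold, where 0.813% of genes did on starch and 1.71% on sucrose.

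Grm5, the main group 1 metabotropic glutamate receptor of the forebrain, had levels of 11.2, 11.8, 11.2 and 11.6 on wild-type starch, wild-type sucrose, heterozygous starch and heterozygous sucrose, with diet changes of 0.07 and 0.05. The 4 arrays lay close together. Among the 4 genes of Gq signalling, which carries the receptor signal to phospholipase C, diet changes ran from -0.04 to 0.33 in wild-type and from -0.32 (Plcb4) to 0.13 in heterozygous mice.

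The 10 calcium channels, which include the IP3 and ryanodine receptors, ran from -0.23 (Trpc4) to 0.62 (Trpc1) in wild-type and from -0.15 (Itpr1) to 0.48 (Ryr3) in heterozygous mice. Ryr3, a ryanodine receptor of the calcium stores, was higher on sucrose in both genotypes, by 0.52 and 0.48, and its levels were 0.599, 0.858, 0.826 and 1.15. From wild-type starch to heterozygous sucrose it differed by 0.95, the highest of the 29 genes.

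Among the scaffold genes, Shank1 had diet changes of 0.07 and -0.02, Shank3 of -0.08 and 0.09, and Dlg4, the gene of PSD-95, of -0.04 and 0.04. Shank2, with levels of 0.861, 0.682, 0.850 and 0.758, was the lowest of the 9 in both genotypes, with diet changes of -0.34 and -0.17. The median of the list was 0.05 in wild-type mice and -0.02 in heterozygotes. Among the other partners, Dnm3, a dynamin, had diet changes of 0.29 and -0.16, and Nfatc2, a transcription factor, of 0.33 and 0.18.

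Activity-induced genes, the class to which the short Homer1 forms belong, were mostly lower on sucrose. Of 16 listed, 14 were lower in wild-type mice, with a median of -0.49, and 14 in heterozygous mice, with a median of -0.61. Over all 20655 genes the medians were -0.0007 and 0.0003, so about as many genes were lower by any amount as higher. Past 2-fold downward were Egr2 in wild-type mice (1 gene, against 0.992% of all genes) and Egr2, Fos, Egr1, Fosb and Arc in heterozygous mice (5 genes, against 0.479%). In heterozygous mice Fos, a subunit of AP-1, changed by -1.24 and Arc, a regulator of receptor endocytosis, by -1.01; in wild-type mice they changed by -0.64 and -0.46. Plk2, a kinase, was not lower in either genotype (0.48 and 0.03), Dusp1, a MAP kinase phosphatase, was not lower in wild-type mice (0.40), and Nr4a3, a nuclear receptor, was not lower in heterozygotes (0.03). That such genes were lower in these arrays was known when the list was written. Their diet medians were also below 0 under normexp, median scaling, quantile normalization, scaling to excitatory neuron markers and with the mean over a gene's probes, from -0.76 to -0.45 in wild-type mice and from -0.64 to -0.60 in heterozygotes.

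**Figure D4:**
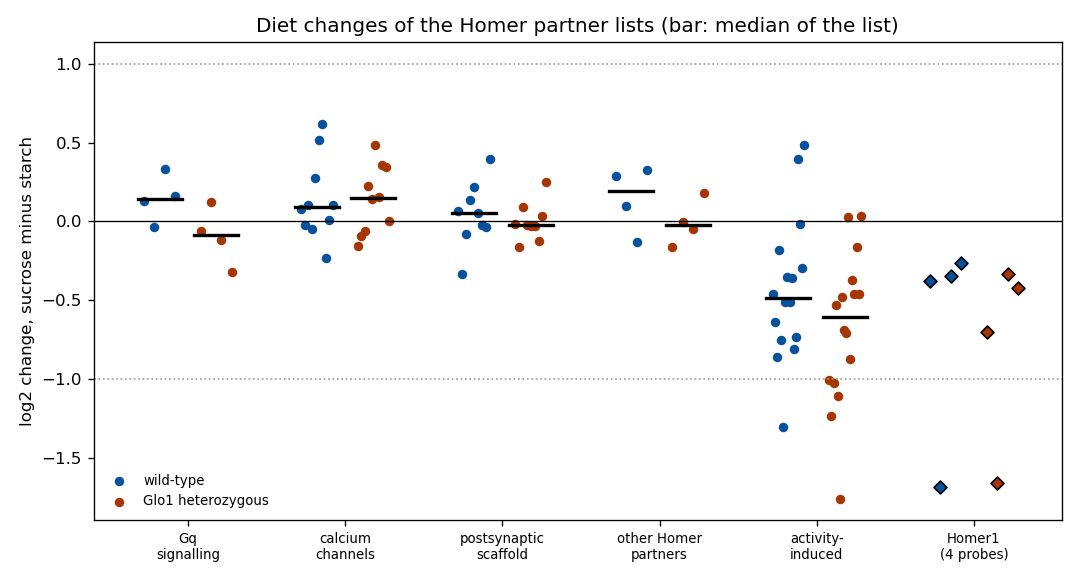
Log2 diet change (sucrose minus starch) of each gene of 5 gene lists in wild-type and Glo1 heterozygous mice, with a bar at each list's median, and of the 4 Homer1 probes as diamonds; dotted lines mark 2-fold. The 4 partner lists drawn have medians between -0.09 and 0.19, and the activity-induced list has -0.49 and -0.61.

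The patterns nearest to the variant S, variant L and interval probes of Homer1 over the 4 arrays were found among all 42094 measured probes, by the root mean square difference of log2 values centred on their 4-array mean. For the variant S probe the 5 nearest genes were Slc17a6 (a vesicular glutamate transporter), 1700120G07Rik, Per2 (a clock gene), Klf4 (a zinc finger transcription factor) and 9330154J02Rik, at 0.019 to 0.025. Per2 had levels of 3.38, 2.59, 3.82 and 2.38 on wild-type starch, wild-type sucrose, heterozygous starch and heterozygous sucrose. For the variant L probe they were Pdlim1, Slc25a45, AW112010, Ubash3a and Pax3, at 0.011 to 0.015. For the interval probe, a search added after the data were examined, the nearest gene was Egr2, a zinc finger transcription factor of the activity-induced class, at 0.14. Its levels were 1.72, 0.695, 2.15 and 0.633, with diet changes of -1.30 and -1.76. The interaction of Egr2 was -0.46, against 0.02 at the interval probe. The next were Htr2b (a serotonin receptor), 9530076L18, Apol11b and Gm10378, at 0.18 to 0.20, with levels no higher than 0.153 on any array. Only 4 values define each pattern, and the interval probe's neighbours were farther away than those of the variant S and variant L probes. The interval probe was taken up for its diet change, so genes near it in pattern had to be lower on sucrose in both genotypes. They do not say which transcript it reads.

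**Figure D5:**
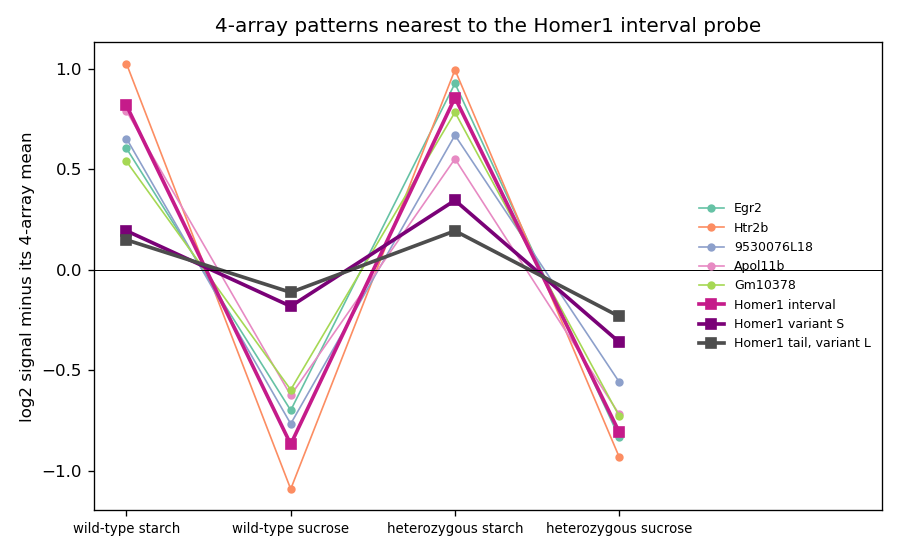
Log2 signal minus its 4-array mean on each array (1 pool per array, no error bars) for 3 Homer1 probes (squares) and the 5 genes nearest in pattern to the interval probe (circles). The interval probe and Egr2 are high on both starch arrays and low on both sucrose arrays, with Egr2 at a root mean square difference of 0.14.

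The Homer1 promoter was read for the core of the cyclic AMP response element, because short and long Homer1 transcripts start from it. The motif TGACGT was searched on both strands in windows of 250 bases before to 50 bases after each RefSeq start (assembly GRCm38.p6). Of the 2 Homer1 windows, 1 held 3 matches, at 56, 40 and 14 bases before the start, and the other held 0. The 100 bases before the start, at chr13:93303657-93303756 on the plus strand, are shown with the matches in capitals:

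Homer1 promoter: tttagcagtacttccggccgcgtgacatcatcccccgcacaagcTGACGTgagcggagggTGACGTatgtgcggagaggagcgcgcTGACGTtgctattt

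Of 32851 windows of this length, 7.51% held at least 1 match and 0.2% held 3 or more. The windows of Homer2 and Homer3 held 0. Of the 16 activity-induced genes 12 had a window in the table, and 9 of these held a match in at least 1 window, against 8.37% of 27025 genes. A match is a run of letters and does not show that a factor binds there. No match says only that these letters are not in the window.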

How the data were processed

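Per the labels, 3 independent total RNA samples per group were mixed, and 200 ng of it was labelled with Cy3 and hybridised to 1 array per group. Per the submitters' processing notes, scanning output came from Agilent Feature Extraction 11.5.1.1. Per the file headers, the deposited intensity values were background-subtracted with spatial detrending and multiplicatively detrended, with no step between arrays, and coordinates are of build mm9. The authors' deposited series matrix holds a ratio per spot: on comparison it was the processed signal over 1 constant per array, 1780.61, 1906.6, 1882.3 and 1928.92, close to the 75th percentile of non-control spots; on wild-type starch the percentile was 1780.37.

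From these, each processed signal was divided by its array's 75th percentile and put on the log2 scale, outlier spots were left out, and spots of a probe were averaged. No spot was saturated, and 77.6% to 80.2% of non-control spots were well above background. Probes well above background on all arrays (42094) served as the comparison set, and a call is a 2-fold difference. Changes are differences of single arrays, and no p-value was computed. Alternatives were normexp (limma 3.58.1, R 4.3.3, offset 50), median scaling, quantile normalization, outlier spots kept, the series matrix values, other filters and a 1.5-fold threshold; scaling to excitatory neuron markers was added after the data were examined. The arithmetic was tested on simulated arrays with planted changes and spot noise. These hold no variation of mice, pools or labelling, so that test says nothing about the findings. Python 3.11.15 was used.

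The members, the gene lists and the marker lists were chosen with earlier results of these data known. The named genes were all Homer probes, Grm5, the Shank genes and Dlg4, partner genes past 2-fold, and the 5 genes nearest in pattern to the variant S probe; other partner genes, activity-induced genes named one by one, the neighbours of the interval probe and of the variant L probe were added after their values were seen or are given as values only. The short form was fixed as the probe that the files assign to variant S; the interval probe was used in its place only after the data were examined. No mm9 genome or annotation and no protein table was used; gene symbols are those of the files, and promoter windows come from a table of RefSeq sequences (GRCm38.p6), where all 3 Homer symbols matched. Values of some single partner genes are not reported here.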

Additional observations from a re-analysis of the deposited data

Results flagged for a closer look

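Effects of opposite sign at the 2 levels of the other factor were seen at 4 Homer probes. The share of all probes with such effects was not computed, so the count describes these probes only. Some values were under the expected spot SD: 0.04 at Homer1's variant L probe (0.070) and 0.08 at Homer2 probe A_51_P352303 (0.085). With 1 array per group none of these differences was tested. Homer3 probe A_51_P466613 had a diet change of -0.06 in wild-type mice and 0.92 in heterozygotes, and a genotype change of -0.04 on starch and 0.94 on sucrose. Its level stood apart on the heterozygous sucrose array. Homer1's variant S probe had a genotype change of 0.15 on starch and -0.18 on sucrose, and its variant L probe 0.04 and -0.12. Homer2 probe A_51_P352303 had a genotype change of -0.25 on starch and 0.08 on sucrose. Scaled to the excitatory neuron markers, the genotype changes of the variant S probe had the same sign, -0.0026 on starch and -0.05 on sucrose, and those of the variant L probe turned to -0.11 and 0.0048. The Homer2 probe then had -0.40 and 0.20, and the Homer3 probe had a wild-type diet change of -0.33 and a starch genotype change of -0.20. Under that scaling genotype changes of opposite sign on starch and sucrose also appeared at the other Homer probes. They were -0.12 and 0.19 at the interval probe and -0.24 and 0.05 at the variant d probe. Homer2 probe A_55_P2737847 had -0.19 and 0.06, and Homer3 probe A_55_P2167461 had -0.0050 and 0.51.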

How the results depend on the processing

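The diet changes of the interval probe ran from -1.96 to -1.62 in wild-type and from -1.69 to -1.62 in heterozygous mice over 6 alternatives, of which the series matrix values and the kept outlier spots hold the same Homer signals and so say nothing about stability. The value of -1.96 came from scaling to excitatory neuron markers, which moved the median of all probes to -0.28 in wild-type mice and to 0.28 for the interaction. Of 48 member changes, 12 changed sign in some setting, none of them over 0.41 in size. Short minus long of Homer1 depended on the probes chosen. With the long form as the mean of all other Homer1 probes, which include the interval probe, it was 0.39 in wild-type mice and 0.10 in heterozygotes, against -0.11 and -0.28. With the interval probe as the short form it was -1.42 and -1.24 for diet, and -0.0059 on starch and 0.18 on sucrose for genotype, against 0.11 and -0.06. Against the mean of both tail probes the interval probe gave -1.38, -1.28 and, for genotype on sucrose, 0.16. At 1.5-fold, 4 Homer probes passed for diet in heterozygous mice, 1 for genotype on sucrose, 3 for both factors together and 1 for the interaction, where 2043, 1789, 3089 and 3866 of all 42094 probes did. Scaling to excitatory neuron markers put 1 Homer probe past 2-fold for genotype on sucrose and 1 for the interaction, where 699 and 1779 of all probes passed, against 603 and 1155 before. The count of all probes past 2-fold for diet in wild-type mice was 554, and it was 3304 without the filter on dim probes, 94 among probes above the median signal and 175 under normexp. In heterozygous mice the same counts were 614, 2984, 81 and 224. The cause of these shifts was not tested. Leaving out an array leaves a group with none. No paired analysis was possible because each group had 1 array and the labels carry no replicate number.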
